A study of Mus musculus with 18 samples.

Results

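Postnatal maturation of the lacrimal gland (LG) was followed across all genes in a strain without gland disease, by comparing male BALB/cJ mice of 8 weeks with those of 3 weeks. The 6 libraries concerned, 3 per age, were taken by their strain and age labels from a series of 18 RNA-seq libraries. Exorbital LGs were profiled by bulk mRNA sequencing in that series, in which BALB/c served as the healthy control of the NOR/LtJ model of Sjögren's disease. By the study's methods, each 3-week library was made from 1 mouse, whereas each 8- or 16-week library pooled the glands of 2 to 3 mice, with 9 mice in a group, so that age and pooling cannot be told apart. The titles and count columns of the NOR libraries carry the name NOD, whereas their genotype label and the study give NOR/LtJ; they were taken as NOR, and every comparison with NOR rests on that reading. The NOR libraries of 3 and 8 weeks and the BALB/c libraries of 16 weeks are used below only to show where the change in BALB/c LGs differed or went on.

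The LG is a tubuloacinar exocrine gland whose acinar cells secrete most of the watery protein layer of the tear film, including lipocalins, secretoglobins, antimicrobial proteins and peptide pheromones. In mice the gland is still growing at weaning and completes its secretory repertoire around puberty, when sexual dimorphism of the gland also appears under androgens. Plasma cells settle in the adult gland and deliver dimeric IgA, which epithelial cells carry into tears.

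Total counts were 20347504, 13261982 and 18217485 in the 3-week libraries (replicates 1, 2 and 3) and 14460004, 14813662 and 19548196 in the 8-week libraries, so that both ages were sequenced to a similar depth. A few secretory genes dominated each library, and the 20 most abundant genes held between 67.4% and 70.3% of the counts. Levels are given as CPM, counts scaled to a common library total, scaled by the TMM factors of edgeR, which set the bulk of genes to equal levels between libraries. A floor of 3 counts corresponded to 0.164 to 0.242 CPM in these libraries. Intervals and floors account for counting error alone and leave out variation from mouse to mouse.

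The labelled tissue was checked with markers of the LG epithelium. The 11 markers summed to 11068, 10666 and 11250.3 CPM at 3 weeks and 9881, 9860.3 and 10908 CPM at 8 weeks, with lactoperoxidase (Lpo) the most abundant. Every library thus carried the lacrimal signature at a similar level, and the ranges of both ages overlapped. Of these markers only lactoferrin (Ltf) changed beyond the cutoffs given below, and the median log2 fold change of the list was 0.03 (−0.06 without replicate 2 of 3 weeks to 0.06 without replicate 1 of 8 weeks, with single libraries left out). The 10 duct markers, led by Krt18, had a median of −0.10 (−0.07 without replicate 3 of 3 weeks, −0.24 without replicate 1, −0.02 without replicate 2 and −0.06 without replicate 3 of 8 weeks) and 0 of 8 tested members past the cutoffs.

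Transcripts of neighbouring tissues set some libraries apart. The 5 parotid markers, led by the salivary protein gene Bpifa2, summed to 1.26, 11879 and 1.71 CPM at 3 weeks and 1621, 444 and 50.9 CPM at 8 weeks, with Bpifa1 at 0 in all 6 libraries. Replicate 2 of the 3-week group was thus far above the other 5 libraries, and replicate 1 stood highest at 8 weeks. The 10 submandibular or sublingual markers, led by Smr3a, were likewise highest in replicate 2 at 3 weeks and replicate 1 at 8 weeks, with 0.328, 2319.6 and 0.253 CPM and 389, 105 and 13.7 CPM, while Smgc, Muc19 and Bpifb2 were at 0 throughout. Skeletal muscle markers, led by Myh4, summed to 5.15, 227 and 6.46 CPM and 48, 179 and 8.58 CPM, and were highest in replicate 2 of either age. None of the 4 parotid or 12 muscle markers tested passed the cutoffs, with medians of −3.32 and −0.02. Of the 5 submandibular or sublingual markers tested, Smr2 alone was upregulated (list median −2.66). The medians of these 3 lists rested on replicate 2 of the 3-week group, without which they were 6.64 (parotid), 6.20 (muscle) and 6.79 (submandibular or sublingual). The muscle median was also −0.64 without replicate 1, −0.61 without replicate 3 of 3 weeks, 0.15 without replicate 1, −1.62 without replicate 2 and 0.54 without replicate 3 of 8 weeks. The counts of Smr2 were 0, 0 and 0 at 3 weeks and 65, 82 and 17 at 8 weeks, at least 19.8-fold higher against the floor of 3 counts per library, and it was at 0 also in the 3-week library richest in the other salivary markers. The tested genes of the sebaceous or Harderian list numbered 2, and neither passed.

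**Figure D1:**
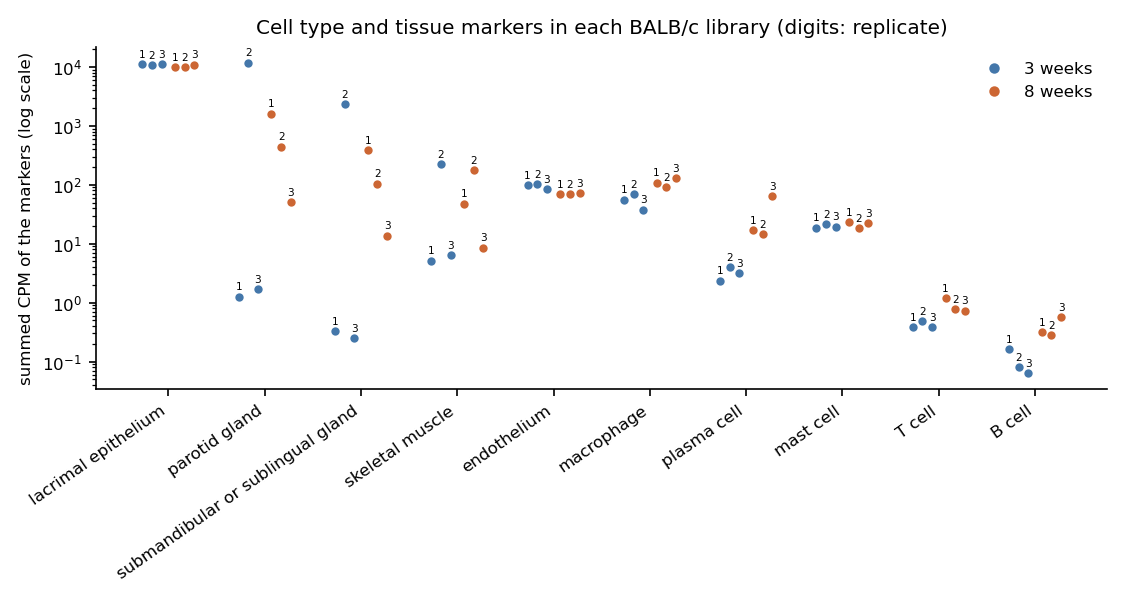
Summed CPM (log axis) of the markers of 10 tissues or cell types in each BALB/c library, 3 weeks in blue and 8 weeks in orange, with the replicate number above each point. Salivary and muscle markers vary between replicates of one age, lacrimal markers are level in all 6 libraries, and macrophage and plasma cell markers lie higher at 8 weeks.

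Genes were compared with the quasi-likelihood test of edgeR, with Benjamini-Hochberg adjustment over the 13376 genes tested (adjusted p). Differentially expressed genes (DEGs) passed the study's cutoffs, 0.05 for the adjusted p and 1 for the log2 fold change in either direction. By this rule 929 genes changed with age (6.95% of the genes tested), 584 upregulated (4.37%) and 345 downregulated (2.58%) at 8 weeks. With adjusted p alone 3736 genes changed (27.9%), 1844 to higher levels (13.8%) and 1892 to lower levels (14.1%), so that the excess of upregulated genes was found only among larger changes. Counts given below for members of gene lists are to be read beside these shares of all genes tested. The median log2 fold change of all genes tested was 0.00195, and the median absolute value among the DEGs was 1.57. An absolute log2 fold change of 3 or more was reached by 90 upregulated and 43 downregulated genes. Many of the genes that changed were scarce: 183 of the upregulated genes had a mean of at least 10 CPM at 8 weeks, and 139 of the downregulated genes had that at 3 weeks. The 3 values of one age lay apart from the 3 of the other for 6017 of all genes tested (45.0%) and for 916 of the 929 DEGs (98.6%). With 3 libraries against 3, the two-sided p of an exact permutation test on 1 gene cannot go below 0.1, so calls rest on the spread that the model shares across genes.

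With the parotid markers' level as a covariate, an alternative added after the data were seen, there were 945 DEGs, and 844 without the BALB/c library of each age that held most of these markers. In whole-gland RNA, fewer cells of a type and less RNA per cell cannot be told apart, here and in all that follows.

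The secreted products of the gland held the largest shifts in abundance. A row of 3 neighbouring odorant-binding protein genes on the X chromosome, Obp1a, Gm5938 and Gm14743, encode lipocalins that carry small hydrophobic molecules. Together they held 25.8%, 23.3% and 25.1% of all counts at 3 weeks and 6.01%, 3.38% and 3.35% at 8 weeks. All 8-week libraries lay far below, replicate 1 highest. Obp1a, the most abundant gene of the 3-week gland per kb of exon length, had 173397, 151469 and 172362 CPM at 3 weeks and 45962, 23644 and 25142 CPM at 8 weeks (log2 fold change −2.39, SE 0.32, adjusted p = 1.4e-05). Gm5938 moved alongside it, from 89272, 75684 and 93485 to 21696, 11040 and 11602 CPM (log2 fold change −2.54, SE 0.33, adjusted p = 9.2e-06). Gm14743 fell most, from 24979, 22179 and 23614 CPM to 709, 281 and 203 CPM (log2 fold change −5.89, SE 0.48, adjusted p = 4.1e-08). In each of the 3 genes replicate 1 was the highest 8-week library, and none of the values of the ages overlapped. Reads of 50 bases cannot be assigned freely here, since 77.5% of the 50-base words of Gm14743 transcripts also occur in Obp1b, against 7.20% of those of Obp1a, which are shared with Gm5938. Reads that map to several places were not counted, so the level of Gm14743 in particular is uncertain.

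The promoters of these 3 genes are shown because the genes fell together from the top of the abundance range. They were read from the RefSeq promoter table (build GRCm38.p6), 250 bases before to 50 bases after the annotated start, written 5′ to 3′ along the strand of the gene. Obp1a lies at chrX:78091325-78091624 (minus strand), Gm5938 at chrX:78125217-78125516 (plus strand) and Gm14743 at chrX:78245872-78246171 (minus strand). Capitals mark matches on either strand to the TATA box letters TATAAA or to AGAACA, a core element of sites for the glucocorticoid receptor; the letters TATAAA occur in 4473 and AGAACA in 6233 of all 32851 promoters of the table.
Obp1a: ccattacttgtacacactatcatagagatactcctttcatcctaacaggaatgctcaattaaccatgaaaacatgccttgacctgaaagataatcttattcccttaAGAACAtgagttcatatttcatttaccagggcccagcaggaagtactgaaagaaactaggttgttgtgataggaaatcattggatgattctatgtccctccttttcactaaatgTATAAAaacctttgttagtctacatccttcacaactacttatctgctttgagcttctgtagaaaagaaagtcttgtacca
Gm5938: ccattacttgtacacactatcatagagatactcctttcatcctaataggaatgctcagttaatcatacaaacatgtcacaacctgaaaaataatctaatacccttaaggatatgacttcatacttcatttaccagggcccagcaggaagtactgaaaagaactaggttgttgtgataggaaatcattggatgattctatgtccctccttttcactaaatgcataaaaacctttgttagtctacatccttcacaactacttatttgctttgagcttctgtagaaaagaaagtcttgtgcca
Gm14743: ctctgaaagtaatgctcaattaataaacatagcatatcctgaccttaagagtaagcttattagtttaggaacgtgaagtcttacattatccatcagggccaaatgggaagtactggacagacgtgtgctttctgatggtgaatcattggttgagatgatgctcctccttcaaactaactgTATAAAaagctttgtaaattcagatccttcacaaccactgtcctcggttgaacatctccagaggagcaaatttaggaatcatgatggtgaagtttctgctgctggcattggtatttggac
The promoters of Obp1a and Gm5938 were identical at 93.0% of aligned positions, while Gm14743 shared 52.3% with the former and 52.5% with the latter. Obp1a had 1 match to each motif, Gm14743 had 1 to TATAAA, and Gm5938 had 0 to either. Of 24 genes of the OBP, exocrine gland-secreted peptide, secretoglobin and chromosome 6 families looked up, 21 were in the table, of which 14 held TATAAA (66.7%) and 6 held AGAACA (28.6%). These matches describe the letters present and nothing more.

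Spt1 (current symbol Mucl2), a mucin-like secreted protein gene on chromosome 15, fell from a share of 7.57% ± 0.160 (SD, n = 3) of the counts to 1.57% ± 0.102. Its levels were 83425, 79950 and 89462 CPM at 3 weeks and 19173, 15406 and 17085 CPM at 8 weeks, with narrow and separate ranges (log2 fold change −2.29, SE 0.26, adjusted p = 2.6e-06). Other secretory genes gained share. Mup4, a lipocalin of the major urinary protein family, rose from 1.52% ± 0.122 to 6.77% ± 0.613 of the counts. In CPM it stood at 17251, 17387 and 15983 at 3 weeks and at 75889, 76964 and 68556 at 8 weeks, and every 8-week library was far above every 3-week one (log2 fold change 2.13, SE 0.28, adjusted p = 1.1e-05). Per kb of exon length, Mup4 moved from 19284 to 84346 CPM per kb, and Obp1a from 218947 to 41721 CPM per kb, so that their order in level was inverted between the ages. The scarcer relatives Mup5 (49.8, 43.4 and 50 against 141, 95.1 and 87 CPM, log2 fold change 1.17, SE 0.28, adjusted p = 0.0036) and Mup6 (3.34, 2.02 and 2.91 against 6.61, 6.92 and 6.94 CPM, log2 fold change 1.28) were upregulated as well. Mup5 fell short of a cutoff without replicate 1 of 8 weeks (0.93). 12.4% of the 50-base words of Mup4 occur in other genes, mostly Mup5. For the scarcer Mup5 the share was 17.1%, mostly in Mup4. Gm1553, an abundant gene on chromosome 10, held 4.79% ± 0.106 and then 7.85% ± 0.566 of the counts, a log2 fold change of 0.68 (SE 0.23, adjusted p = 0.03) that was below the fold cutoff. Gm1553 did not pass without any 1 of the 6 libraries (adjusted p = 0.058 to 0.11).

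Of the 10 tested members of the list of lipocalins and odorant-binding proteins, 6 were upregulated and 1 (Obp1a) downregulated, with a median log2 fold change of 1.23. Gm5938 and Gm14743, which were also downregulated, are not on this list and stand outside its counts. Beside the Mup genes, the apolipoprotein gene Apod rose from 10.2, 8.96 and 7.85 to 35.1, 27.6 and 41.8 CPM (log2 fold change 1.95, SE 0.13, adjusted p = 3.8e-09). Ptgds, the prostaglandin D synthase of the lipocalin family, had only 3, 2 and 2 counts at 3 weeks and 5, 18 and 7 at 8 weeks, a count ratio of 4.45 (95% interval 1.92 to 12). For the retinol carrier gene Rbp4 the ratio was 5.19 (1.74 to 20.9), from 1, 3 and 0 counts to 10, 4 and 6. Ptgds fell short of a cutoff without replicate 3 of 3 weeks (adjusted p = 0.059) or 2 of 8 weeks (0.16). Lcn11, the next most abundant member after Mup4 and Obp1a, moved the other way without reaching the fold cutoff (log2 fold change −0.79, adjusted p = 0.0086). Lcn11 did not pass without replicate 1 of 8 weeks (adjusted p = 0.053).

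A switch between neighbouring genes was seen on chromosome 6, where 4 uncharacterised genes lie within a stretch of little over a megabase. Gm5885 had 9793, 7180 and 7969 counts in the 3-week libraries and no count in any 8-week library, at least 2634-fold lower against the floor of 3 counts per library. 5530400C23Rik went from 22959, 16854 and 18541 counts to 0, 1 and 0, a count ratio of 56198 with a 95% interval of 10086 to 2219760. The next gene on the chromosome, Gm5886, did the reverse, with 2, 9 and 7 counts at 3 weeks and 20914, 22759 and 30309 at 8 weeks (log2 fold change 12, SE 0.45, adjusted p = 1.1e-12). A630073D07Rik, upstream of them, fell from 65.6, 78.8 and 51.2 to 0.786, 0.350 and 0.564 CPM (log2 fold change −6.84, SE 0.40, adjusted p = 4.2e-10). Each of the 4 genes was thus close to an all-or-none marker of age in these libraries, with no library of one age near the other. Their positions in the count table (mm10) are chr6:132625111-132627511 for A630073D07Rik, chr6:133292216-133295790 for 5530400C23Rik, chr6:133529189-133532762 for Gm5885 and chr6:133763999-133767403 for Gm5886. The words of 50 bases in 5530400C23Rik and Gm5885 transcripts are shared between the pair to 37.3%, and those of Gm5886 to 2.97% with any gene, so Gm5886 is told apart from its neighbours better than these are from each other. Promoters of 5530400C23Rik (chr6:133291966-133292265 (plus strand)) and A630073D07Rik (chr6:132627462-132627761 (minus strand)), from the same table and with the same capitals, are given for the members found in it.
5530400C23Rik: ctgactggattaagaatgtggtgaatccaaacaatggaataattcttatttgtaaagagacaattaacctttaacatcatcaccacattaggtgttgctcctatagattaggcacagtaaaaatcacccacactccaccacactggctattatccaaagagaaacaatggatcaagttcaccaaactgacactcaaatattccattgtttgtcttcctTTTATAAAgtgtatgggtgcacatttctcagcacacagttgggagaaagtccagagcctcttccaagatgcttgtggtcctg
A630073D07Rik: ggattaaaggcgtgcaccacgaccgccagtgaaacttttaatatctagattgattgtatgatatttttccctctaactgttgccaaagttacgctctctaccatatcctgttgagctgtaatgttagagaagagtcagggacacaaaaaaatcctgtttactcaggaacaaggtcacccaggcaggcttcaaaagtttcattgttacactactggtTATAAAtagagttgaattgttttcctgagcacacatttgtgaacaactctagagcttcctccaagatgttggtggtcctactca
The former held 2 matches to TATAAA, which overlap on opposite strands of the same stretch, and the latter 1. Both held 0 to AGAACA, and 54.2% of the aligned positions were identical.

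**Figure D2:**
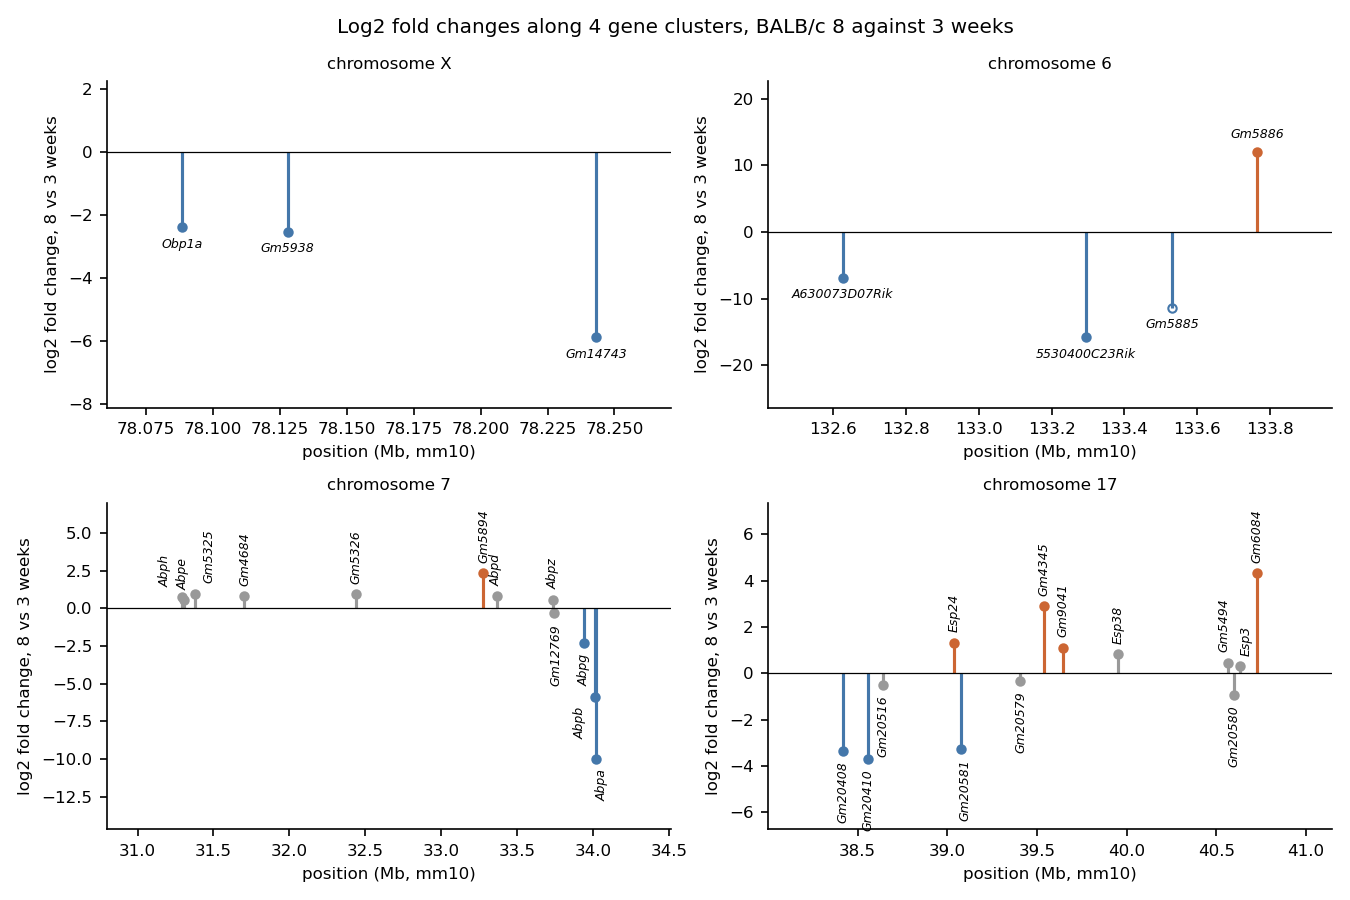
Log2 fold changes between 8 and 3 weeks (vertical axis) of the genes of 4 clusters against their position in Mb of mm10, with upregulated genes in orange, downregulated genes in blue and others in grey. Gm5885 is drawn open at its bound against the floor of 3 counts, and 5530400C23Rik at its count ratio. The clusters on chromosomes 6, 7 and 17 each hold genes of opposite direction, which are neighbours in the case of Gm5885 and Gm5886 on chromosome 6.

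Secretoglobins are small dimeric secreted proteins that bind lipophilic ligands, and those of the androgen-binding protein family act in mate recognition. The secretoglobin genes, most of them of that family, held 24.3% ± 0.472 of the counts at 3 weeks and 40.9% ± 0.825 at 8 weeks over 17 genes. Of the 12 tested members of the list, 1 was upregulated and 2 downregulated, and the median was 0.77. By adjusted p alone 7 were higher, since the abundant members moved by less than the fold cutoff. Abph (Scgb1b2) had 45057, 44263 and 46942 CPM at 3 weeks and 82472, 70098 and 76181 CPM at 8 weeks (log2 fold change 0.75, SE 0.22, adjusted p = 0.018), and Gm5325 (Scgb1b3) had 30592, 29909 and 35655 and 63376, 61548 and 63616 CPM (log2 fold change 0.97, SE 0.20, adjusted p = 0.0013). Abph did not pass without replicate 1 (adjusted p = 0.066), 2 (0.068) or 3 of 3 weeks (0.054) or 1 (0.071) or 3 of 8 weeks (0.052). Abpe (Scgb2b2), the most abundant of them at both ages per kb, missed the threshold in the edgeR fit (log2 fold change 0.55, adjusted p = 0.064). It did not pass without any 1 library (adjusted p = 0.07 to 0.22), without the pair richest in parotid markers, without a filter or with a replicate block. It passed by DESeq2 (adjusted p = 0.004), with scaling by library totals (adjusted p = 0.0029), in edgeR fits of the 6 or 9 BALB/c libraries alone, and with the parotid marker level as a covariate (adjusted p = 0.045). Gm5894 (Scgb2b19) was upregulated, from 737, 615 and 889 to 2670.4, 4679 and 3786 CPM (log2 fold change 2.31, SE 0.51, adjusted p = 0.0022), although 63.1% of its 50-base words occur in other genes. Such words made up 100% in Gm5326 (Scgb1b29), 58% in Abpd (Scgb2b20), 29.6% in Gm4684 (Scgb2b7) and 27.8% in Gm5325. In Abpe they made up 4.85% and in Abph 2.13%. Reads that map to several places were not counted, so the family's share of counts is partial.

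At one end of this cluster the direction was the opposite. Abpa (Scgb1b27), the alpha subunit of salivary androgen-binding protein, had 9373, 4694 and 9656 counts at 3 weeks and 6, 7 and 9 at 8 weeks (log2 fold change −9.97, SE 0.44, adjusted p = 8.7e-12). Abpb (Scgb2b27), its beta partner next to it, fell from 211, 163 and 245 to 3.77, 3.29 and 3.67 CPM (log2 fold change −5.85, SE 0.36, adjusted p = 6.2e-10). Abpg (Scgb2b26), the following gene, fell from 4.98, 2.34 and 5.19 to 0.629, 0.979 and 0.903 CPM (log2 fold change −2.31, SE 0.32, adjusted p = 1.9e-05). In all 3 genes replicate 2 was the lowest 3-week library, the one with most parotid transcripts, and every 8-week library was lower still. None of the 50-base words of Abpa occur in another gene, while Abpb was not paired with its listed symbol and stands outside the list count.

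Exocrine gland-secreted peptides (ESPs) are released into tears and sensed by the vomeronasal organ of other mice, and their genes form a cluster on chromosome 17. As a family they held 2.92% ± 0.185 of the counts at 3 weeks and 4.64% ± 0.271 at 8 weeks. All 14 listed members found in the table were tested, of which 4 were upregulated, 3 downregulated and 7 neither, with a median of −0.00 (−0.07 without replicate 3 of 8 weeks to 0.08 without replicate 2 of 8 weeks, with single libraries left out). Gm6084 (Esp1), the male pheromone that raises receptivity in females, had 12.9, 26 and 12.6 CPM at 3 weeks and 468, 239.6 and 304 CPM at 8 weeks (log2 fold change 4.31, SE 0.32, adjusted p = 8.8e-09). Gm4345 (Esp16) had 1146, 1336 and 1323 CPM at 3 weeks and 9487, 8741 and 10264 CPM at 8 weeks (log2 fold change 2.90, SE 0.31, adjusted p = 1.2e-06), with the libraries of each age close together. Its relative Gm9041 (Esp15) went from 7812, 5873 and 8050.4 to 15695, 13641 and 17249 CPM (log2 fold change 1.10, SE 0.24, adjusted p = 0.0022), but without replicate 2 of the 3-week group its log2 fold change of 0.97 was below the cutoff. Esp24 was upregulated to a lesser degree, from 102, 107 and 104 to 202, 300.0 and 284 CPM (log2 fold change 1.33).

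The downregulated ESPs lay at lower coordinates of the cluster, near the upregulated Esp24. Gm20410 (Esp34) fell from 642, 527 and 670.1 to 31.9, 40.7 and 69.7 CPM (log2 fold change −3.69, SE 0.45, adjusted p = 4.6e-06), and Gm20408 (Esp36) from 802, 629 and 879 to 38, 111 and 75 CPM (log2 fold change −3.37, SE 0.58, adjusted p = 2.2e-04). Gm20581 (Esp23) had 247, 231 and 278 CPM at 3 weeks and 29.4, 17.6 and 31.7 CPM at 8 weeks (log2 fold change −3.26, SE 0.20, adjusted p = 9.5e-10). For these 3 genes the lowest 3-week value was several times the highest 8-week value. Gm5494 (Esp6), the most abundant ESP, had 12681, 12759 and 13391 and 17668, 17055 and 18340.1 CPM with an adjusted p of 0.094. Some of the 50-base words of Esp15 (22%) and Esp16 (21.2%) are shared, mainly between the pair, whereas Gm6084 and Gm20581 share 0. Crisp2, the gene next to Gm6084, encodes a cysteine-rich secretory protein best known from the testis, and was upregulated at a low level, 0.164, 0.565 and 0.127 against 1.34, 1.19 and 0.846 CPM (log2 fold change 2.04, SE 0.52, adjusted p = 0.0062).

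Promoters of 3 of the 4 upregulated ESP genes, Gm6084 (chr17:40726870-40727169 (plus strand)), Gm4345 (chr17:39535892-39536191 (plus strand)) and Gm9041 (chr17:39640707-39641006 (plus strand)), are printed to compare the pair that is near-identical with the gene that rose most, again from RefSeq (GRCm38.p6) with TATAAA and AGAACA in capitals.
Gm6084: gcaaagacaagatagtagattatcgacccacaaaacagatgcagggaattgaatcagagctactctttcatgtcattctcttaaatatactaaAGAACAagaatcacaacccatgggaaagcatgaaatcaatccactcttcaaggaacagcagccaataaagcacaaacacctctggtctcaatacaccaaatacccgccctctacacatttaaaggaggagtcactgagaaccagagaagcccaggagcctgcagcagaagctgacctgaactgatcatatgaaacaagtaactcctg
Gm4345: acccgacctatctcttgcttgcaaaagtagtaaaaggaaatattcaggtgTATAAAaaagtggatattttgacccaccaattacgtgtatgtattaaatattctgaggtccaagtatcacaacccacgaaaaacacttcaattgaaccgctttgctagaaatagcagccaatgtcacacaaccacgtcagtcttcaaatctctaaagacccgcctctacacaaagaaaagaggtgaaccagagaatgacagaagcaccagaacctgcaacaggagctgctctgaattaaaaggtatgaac
Gm9041: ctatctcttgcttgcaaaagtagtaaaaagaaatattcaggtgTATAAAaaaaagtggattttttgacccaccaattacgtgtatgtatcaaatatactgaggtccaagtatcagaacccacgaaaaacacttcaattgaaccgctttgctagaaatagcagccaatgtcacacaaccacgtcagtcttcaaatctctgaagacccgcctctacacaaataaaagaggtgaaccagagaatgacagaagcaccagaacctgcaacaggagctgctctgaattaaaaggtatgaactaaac
Gm4345 and Gm9041 were identical at 93.2% of aligned positions, and Gm6084 shared 56.7% and 58.3% with them. Among the ESP promoters matched, Gm6084 was closest to Gm5494 (74.5%), which did not pass the test, and shared 65.3% with Gm20408, which fell.

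**Figure D3:**
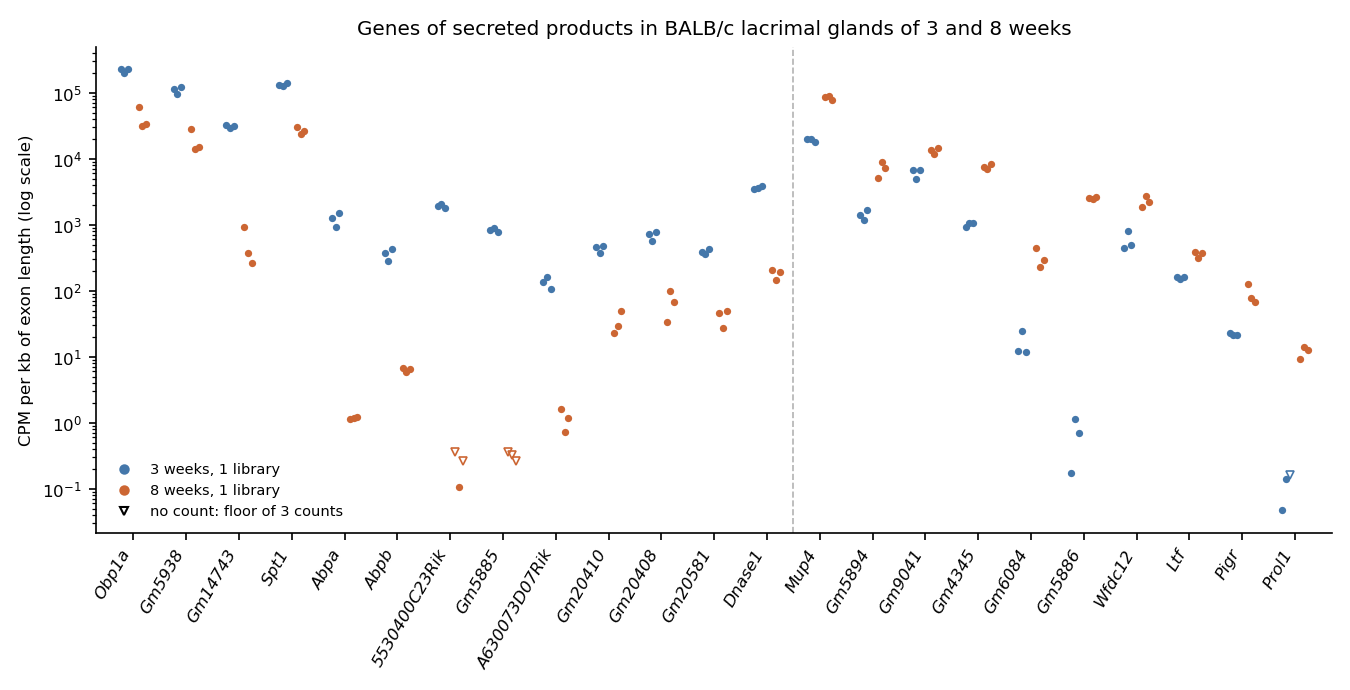
CPM per kb of exon length (log axis) of 23 genes, mostly of secreted products, in each BALB/c library, 3 weeks in blue and 8 weeks in orange. Genes left of the dashed line were downregulated and those right of it upregulated, open triangles mark libraries without a count at the floor of 3 counts, and no gene shows overlap of the ages.

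Of 19 antimicrobial and protective tear proteins tested, 5 were upregulated and 1 (Spt1) downregulated, with a median of 0.44. The median was 0.22 without replicate 1, 0.23 without replicate 3 of 3 weeks, 0.24 without replicate 1 and 0.67 without replicate 3 of 8 weeks. Ltf, the iron-binding lactoferrin, had 441, 421 and 441 CPM at 3 weeks and 1052, 864 and 1008 CPM at 8 weeks (log2 fold change 1.17, SE 0.13, adjusted p = 1.3e-06). Lyz2, lysozyme of macrophages and some epithelia, rose from 15.7, 19.9 and 9.94 to 37.8, 29.8 and 42.8 CPM (log2 fold change 1.29). Prol1, a precursor of opiorphin-like peptides, had 1, 2 and 0 counts at 3 weeks and 139, 236 and 265 at 8 weeks, a count ratio of 222 (95% interval 75.5 to 1077). Its neighbour Amtn, which encodes the enamel protein amelotin, had 3, 0 and 0 and 8, 16 and 15 counts (ratio 13.5, 4.29 to 68.3). Slpi, a protease inhibitor of mucosal fluids, had no count at 3 weeks and 2, 1 and 27 at 8 weeks, at least 2.94-fold higher by the floor of 3 counts per library, and rested on replicate 3 (adjusted p = 0.079 without it). With the genes at a floor set to their bounds, the median of the list was 0.44. Lpo (8797, 8384 and 8927 against 7095, 7232 and 7990.0 CPM, adjusted p = 0.35) and the prolactin-inducible protein Pip (22117, 20891 and 24026 against 16812, 16548 and 18624 CPM, adjusted p = 0.19), both far more abundant, did not pass the test.

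Other abundant genes of secreted or unknown products completed the rise. Wfdc12, a whey acidic protein type protease inhibitor, had 319.8, 577 and 355 CPM at 3 weeks and 1337, 1958 and 1621 CPM at 8 weeks (log2 fold change 1.97, SE 0.26, adjusted p = 1.2e-05). The uncharacterised gene 2310057J18Rik went from 1674, 2074 and 1646 to 9535, 6722 and 7092 CPM (log2 fold change 2.11, SE 0.29, adjusted p = 1.9e-05). Gm12888 had 5679, 5168 and 5583 and 11898, 10902 and 11593 CPM (log2 fold change 1.07, SE 0.22, adjusted p = 0.0011), tight within each age. Without the BALB/c library of each age richest in parotid markers, its log2 fold change of 1.0 lay just below the cutoff. Among the downregulated genes of this abundance, 9530002B09Rik had 1946, 1851 and 1976 CPM at 3 weeks and 932, 858 and 1002 CPM at 8 weeks (log2 fold change −1.05, SE 0.21, adjusted p = 7.5e-04), and fell short of the fold cutoff without replicate 2 of the 8-week group (−0.99). Dnase1, the secreted endonuclease that degrades extracellular DNA, fell from 4538, 4696 and 5002 to 267, 191 and 251 CPM (log2 fold change −4.33, SE 0.30, adjusted p = 3.9e-09). All 3 of its 8-week values were far below the lowest 3-week value.

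Enzymes of lipid handling moved in both directions. Slc27a2, a very long-chain acyl-CoA synthetase and fatty acid transporter, had 128, 155 and 136 CPM at 3 weeks and 2992, 2949.6 and 2684 CPM at 8 weeks (log2 fold change 4.36, SE 0.20, adjusted p = 1.4e-11), and its transcripts share 0 words of 50 bases with any other gene. Its neighbour Hdc, the histidine decarboxylase that makes histamine, stood near 1 CPM (0.712, 0.565 and 0.253 against 1.18, 1.05 and 1.02 CPM, adjusted p = 0.024). The call of Hdc was lost without replicate 1 (adjusted p = 0.069) or 2 of the 8-week group (0.051) or replicate 3 of the 3-week group (0.16). Of 15 genes of fatty acid synthesis, 5 were upregulated and 0 downregulated, with a median of 0.48. The stearoyl-CoA desaturases led: Scd1 had 23.9, 44.6 and 21.6 CPM at 3 weeks and 393, 335 and 310.0 CPM at 8 weeks (log2 fold change 3.53, SE 0.24, adjusted p = 2.6e-09). Scd2 went from 36.5, 60.4 and 55.1 to 351, 361 and 345 CPM (log2 fold change 2.80, SE 0.22, adjusted p = 2.1e-08). Srebf1, the transcription factor of lipogenic genes, rose from 23.8, 28.7 and 27.7 to 99.2, 113 and 97.6 CPM (log2 fold change 1.95, SE 0.17, adjusted p = 6.1e-08). Fatty acid synthase, Fasn, rose from 55.5, 56.6 and 64.1 to 127, 190.2 and 126 CPM (log2 fold change 1.33), and Thrsp, a lipogenic regulator, from 1.22 to 4.39 CPM on average (1.93). Members such as Gpam (−0.03), Elovl5 (0.06) and Fads1 (0.01) did not pass the test, and Elovl6 was lower by adjusted p alone (−0.85). Elovl6 did not pass without replicate 3 of 3 weeks (adjusted p = 0.068).

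Of 22 cholesterol synthesis genes, 0 were upregulated and 2 downregulated, with a median of −0.14 (−0.22 without replicate 1 of 3 weeks). Their sum was 318, 344 and 343 CPM at 3 weeks and 283, 254 and 268 CPM at 8 weeks, without overlap. Fdft1, squalene synthase, the first enzyme committed to sterols, fell from 25.5, 34.9 and 32.3 to 0.865, 0.979 and 0.903 CPM (log2 fold change −5.06, SE 0.30, adjusted p = 4.2e-10). Sqle, the next enzyme, fell from 6.40, 6.62 and 6.77 to 2.60, 2.03 and 2.48 CPM (log2 fold change −1.47, SE 0.17, adjusted p = 3.3e-06), while Lss (−0.00) and Cyp51 (−0.02) did not pass. Phyh, the peroxisomal hydroxylase of phytanic acid, was among the most abundant genes that fell, with 2337, 2286 and 2631 CPM at 3 weeks and 108, 79.3 and 83.8 CPM at 8 weeks (log2 fold change −4.74, SE 0.32, adjusted p = 3.2e-09). Ucma, a cartilage matrix protein gene that adjoins Phyh on chromosome 2, fell from 185, 109 and 180 counts to 4, 3 and 4 (log2 fold change −5.32, SE 0.42, adjusted p = 2.1e-08). Pnliprp1, a lipase-related protein of the pancreas, had 1294, 2816 and 985 counts at 3 weeks, most of them in the library with salivary transcripts, and 1, 3 and 13 at 8 weeks (log2 fold change −8.28, SE 0.79, adjusted p = 2.8e-07). The monocarboxylate transporter gene Slc16a12 fell from 31.1, 37.3 and 29.5 to 0.236, 0.350 and 0.282 CPM (log2 fold change −6.77, SE 0.29, adjusted p = 5.3e-12).

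The genes with the smallest p-values included abundant ones given above, such as 5530400C23Rik, Gm5886 and Slc27a2, and others that were mostly scarcer. Among those that rose, Tacc1, a coiled-coil protein of the centrosome, had 9.47, 10.7 and 9.24 and 53.7, 61.3 and 54.2 CPM (SE 0.090). Slc28a3, a concentrative nucleoside transporter, had 5.69, 5.97 and 5.51 CPM at 3 weeks and 51.7, 50 and 50.3 CPM at 8 weeks (log2 fold change 3.15, SE 0.13, adjusted p = 5.3e-12), with values of one age close together. Pgf, a growth factor of the VEGF family, had 3.78, 4.84 and 4.62 and 74.6, 78.1 and 68.4 CPM (log2 fold change 4.07, SE 0.20, adjusted p = 2.7e-11). Sgk3, a kinase downstream of phosphoinositide signalling, rose from 3.67, 4.68 and 3.80 to 62.1, 97.9 and 69.3 CPM (log2 fold change 4.25, SE 0.23, adjusted p = 1.4e-10). Fap, a serine protease of the cell surface, went from 2.74, 2.82 and 3.10 to 24.3, 23.3 and 21.4 CPM (log2 fold change 2.99, SE 0.14, adjusted p = 2.1e-11). For these genes the spread within each age was small against the difference. Sdc3, a heparan sulphate proteoglycan, went from 20.5, 14 and 17 to 96.6, 128 and 112 CPM (log2 fold change 2.70), and Eml1, a microtubule-associated protein, from 10.3, 11.1 and 10.8 to 44.2, 41.5 and 37.3 CPM (1.94). Among those that fell, 4930597G03Rik, of unknown function, had 463, 469 and 526 CPM at 3 weeks and 13.8, 8.04 and 19.2 CPM at 8 weeks (log2 fold change −5.14, SE 0.21, adjusted p = 2.6e-12). The clathrin assembly gene Snap91 fell from 25.6, 28.5 and 26.4 to 1.49, 1.40 and 1.30 CPM (log2 fold change −4.26, SE 0.20, adjusted p = 1.4e-11). Tspan3, a tetraspanin, fell from 29.6, 28 and 36.3 to 7.16, 6.36 and 6.26 CPM (log2 fold change −2.25).

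St6galnac2, which adds sialic acid to O-glycans, had 31.4, 39.9 and 33.9 CPM at 3 weeks and 193, 189 and 166 CPM at 8 weeks (log2 fold change 2.38, SE 0.12, adjusted p = 4.6e-11). B4galnt3, which builds the LacdiNAc disaccharide, had 1, 6 and 0 counts at 3 weeks and 215, 431 and 379 at 8 weeks (log2 fold change 7.16, SE 0.73, adjusted p = 6.4e-07). A4gnt, which adds terminal N-acetylglucosamine to mucin glycans, rose from 1.53, 7.10 and 2.53 to 40.8, 88.7 and 49.1 CPM (log2 fold change 4.10, SE 0.49, adjusted p = 3.7e-06), with replicate 2 highest at either age. Ninj2, next to B4galnt3, had 1, 1 and 2 and 3, 17 and 14 counts (ratio 8.83, 95% interval 3.15 to 34.2), and Dzip1l, next to A4gnt, had 0.930, 0.888 and 0.317 and 7.39, 11.4 and 9.25 CPM (log2 fold change 3.71, SE 0.29, adjusted p = 2.5e-08). Counting made no use of strand, so that reads of overlapping or antisense neighbours could not be separated.

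Rn45s, the precursor of ribosomal RNA, fell from 1815, 1266 and 1849 to 347, 224 and 266 CPM (log2 fold change −2.56, SE 0.25, adjusted p = 4.0e-07). Lars2, the mitochondrial leucyl-tRNA synthetase, fell from 865, 658 and 952 to 29.7, 25.3 and 25.2 CPM (log2 fold change −4.95, SE 0.21, adjusted p = 5.3e-12). Whether RNA preparation took part in either decrease was not tested. Without both genes in the table, an alternative added after seeing the data, the DEGs numbered 926.

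Of 40 extracellular matrix genes, 0 were upregulated and 7 downregulated, with a median of −0.44 against the all-gene median near 0, and by adjusted p alone 19 were lower and 3 higher. Col1a1, a chain of fibrillar collagen I, had 169, 133 and 97.9 CPM at 3 weeks and 58.4, 44.1 and 36 CPM at 8 weeks (log2 fold change −1.54, SE 0.18, adjusted p = 2.5e-06). Col4a1 of the basement membrane fell from 83.4, 87.6 and 79.1 to 35.9, 44.1 and 38.8 CPM (log2 fold change −1.07, SE 0.12, adjusted p = 1.9e-06; −0.98 without the library of each age richest in parotid markers), and its partner Col4a2 likewise (log2 fold change −1.02). Sparc, a collagen-binding matricellular protein, fell from 211, 220.1 and 157 to 97.5, 78 and 69.6 CPM (log2 fold change −1.26, SE 0.14, adjusted p = 2.1e-06), and elastin, Eln, from 21.6, 15.4 and 17.2 to 5.66, 5.66 and 8.18 CPM (log2 fold change −1.46, SE 0.17, adjusted p = 4.0e-06). The cross-linking enzyme Lox (−1.07) and the small proteoglycan Fmod (−1.15) were the other DEGs. The calls of Col4a2, Lox and Fmod rested on single libraries. Col4a2 fell short of a cutoff without replicate 1 of 3 weeks (−0.99) or 1 (−0.96) or 3 of 8 weeks (−0.98), and Lox did without replicate 1 (adjusted p = 0.15) or 3 of 3 weeks (0.073) or 1 (0.14) or 2 of 8 weeks (0.11). Fmod fell short of a cutoff without replicate 1 (adjusted p = 0.11) or 3 of 3 weeks (0.10) or 1 (0.069) or 2 of 8 weeks (0.13). With all 6 libraries kept, Fmod did not pass by DESeq2 (adjusted p = 0.080) or with the replicate block (0.058). Lox did not pass with library totals (adjusted p = 0.091) or in the fit of the 9 BALB/c libraries (0.0502). Col4a2 was under the fold cutoff with library totals (−0.99). Col3a1, the most abundant member, was lower by adjusted p alone (−0.77), whereas Fn1 (0.67), Dcn (0.49) and Ogn (0.81) were higher by the same measure. Of the fibroblast markers, 0 of 7 tested passed the cutoffs, and the median was 0.53 (0.27 without replicate 3 of 3 weeks and 0.34 without replicate 1 of 8 weeks).

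Of 12 imprinted genes of the fetal growth network tested, 6 were downregulated and 0 upregulated, with a median of −0.93. Igf2, the fetal growth factor, had 4.87, 4.36 and 3.17 CPM at 3 weeks and 0.629, 0.839 and 0.959 CPM at 8 weeks (log2 fold change −2.32, SE 0.30, adjusted p = 1.1e-05). H19, the non-coding RNA of the same domain, had 4.93, 9.28 and 3.29 and 0.393, 1.68 and 0.959 CPM (log2 fold change −2.48, SE 0.44, adjusted p = 2.9e-04). The zinc-finger regulator Plagl1 fell from 2.86 to 0.615 CPM on average (log2 fold change −2.15, SE 0.36, adjusted p = 1.8e-04). Peg3 (−1.35), Grb10 (−1.22) and Meg3 (−1.0) made up the 6, with Meg3 at the cutoff and the calls of Meg3 and Peg3 resting on single libraries. Igf2r, the scavenging receptor of Igf2 and by far the most abundant of the list, was higher by adjusted p alone, 93.7, 90.1 and 98.1 against 164, 175 and 164 CPM (log2 fold change 0.83, adjusted p = 3.8e-06). Its level kept the summed CPM of the list higher at 8 weeks although most members were lower. Meg3 fell short of a cutoff without replicate 1 of 3 weeks (−0.87) or 1 (−0.97) or 3 of 8 weeks (−0.91), and Peg3 did without replicate 3 of 8 weeks (adjusted p = 0.055). With all 6 libraries kept, Meg3 was also under the fold cutoff by DESeq2 (−0.99) and with library totals (−0.97). The same was true with the other scalings, in fits of BALB/c libraries alone, with the replicate block and with the parotid covariate.

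The proliferation list gave no common direction. Of 30 genes tested, Mki67 and Tk1 were upregulated, Top2a was downregulated and 27 were neither, and the median was 0.00 (−0.19 without replicate 2 of 8 weeks to 0.29 without replicate 3 of 8 weeks, with single libraries left out). Mki67, which coats mitotic chromosomes, had 8.76, 11.1 and 12.5 CPM at 3 weeks and 27.8, 36 and 21.4 CPM at 8 weeks (log2 fold change 1.40, SE 0.28, adjusted p = 9.5e-04). Top2a, the replication topoisomerase that is usually expressed in the same cells, had 11.5, 12.6 and 12.8 and 4.09, 6.78 and 3.89 CPM (log2 fold change −1.33, SE 0.31, adjusted p = 0.0036). Tk1, thymidine kinase, rose from 1.92, 1.05 and 2.03 to 3.46, 4.06 and 3.10 CPM (log2 fold change 1.05). Tk1 fell short of a cutoff without replicate 2 of 3 weeks (0.84) or 2 of 8 weeks (0.94). Mitotic genes at lower levels did not pass, among them Ccnb1 (−0.39), Aurkb (−0.27) and Cdk1 (−0.16).

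Of 27 developmental regulators of the gland, 1 was downregulated and 0 upregulated, with a median of −0.14 (−0.06 without replicate 3 of 8 weeks). This was Axin2, a feedback target of Wnt signalling, which fell from 1.37, 3.71 and 1.96 to 0.629, 0.629 and 1.07 CPM (log2 fold change −1.52, SE 0.41, adjusted p = 0.0086). Axin2 fell short of a cutoff without replicate 2 of 3 weeks (adjusted p = 0.065). Pax6, the transcription factor of eye and LG identity, stayed within 169, 133 and 146 and 125, 141 and 135 CPM (adjusted p = 0.30). Sox9 (−0.72) and Six2 (−0.66) were lower by adjusted p alone.

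**Figure D4:**
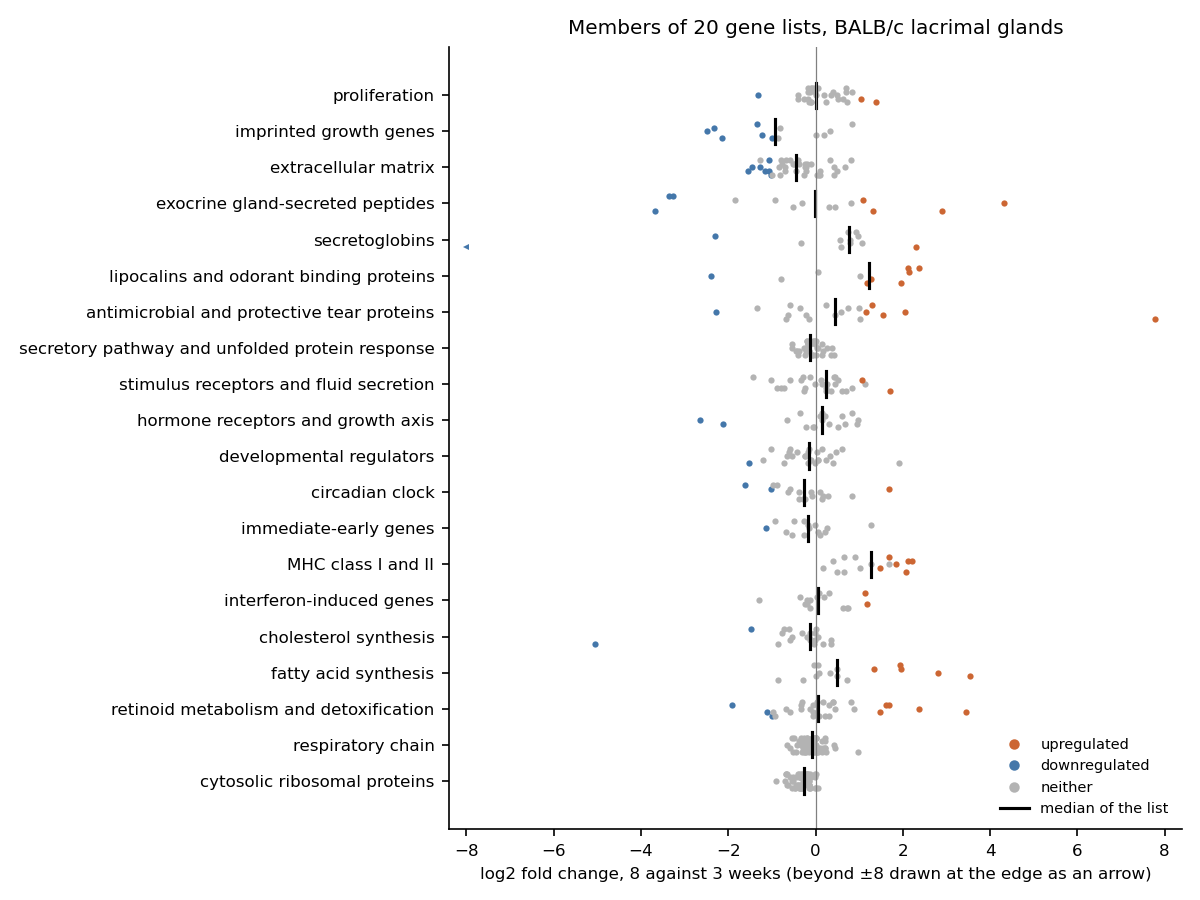
Log2 fold changes between 8 and 3 weeks of the tested members of 20 gene lists, with upregulated members in orange, downregulated in blue and others in grey, and the median of each list as a black bar. Genes without counts at one age are drawn at their bound, and 1 secretoglobin beyond the axis is drawn at its edge.

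Log2 fold changes of the secretory machinery itself stayed within the fold cutoff. None of 36 genes of the secretory pathway and unfolded protein response was a DEG by edgeR (median −0.13; −0.07 without replicate 1 of 3 weeks), with 2 higher and 6 lower by adjusted p alone. Xbp1, the transcription factor of secretory cells, had 450.1, 451 and 473 and 497, 427 and 451 CPM (log2 fold change 0.00), and Bhlha15, which shapes acinar cells, had 1291, 1331 and 1333 and 1280.3, 1298 and 1461 CPM (0.03). The chaperone Hspa5 gave −0.06. Creld2 (−0.55) was lower by adjusted p alone. Log2 fold changes in the list ranged from −0.55 to 0.43. Of all genes tested, 6.95% were DEGs, and by adjusted p alone 13.8% were higher and 14.1% lower. The counts of this list by adjusted p alone were near those shares and do not set it apart.

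Of 29 genes of stimulus receptors and fluid secretion, 2 were upregulated and 0 downregulated, beside 4.37% and 2.58% of all genes tested. The median was 0.24 (0.14 without replicate 1 of 3 weeks and 0.15 without replicate 2 of 8 weeks). Chrm1, a muscarinic receptor, rose from 1.86, 2.10 and 2.34 to 6.53, 7.06 and 7.11 CPM (log2 fold change 1.72, SE 0.18, adjusted p = 8.5e-07), while the main muscarinic receptor of the gland, Chrm3, had 19.9, 22.2 and 26.1 and 18.6, 20.1 and 19 CPM (adjusted p = 0.14). Vipr1, the receptor of vasoactive intestinal peptide, rose from 21.8, 23.2 and 26.2 to 46.6, 49.9 and 53.5 CPM (log2 fold change 1.08, SE 0.11, adjusted p = 8.3e-07). The water channel gene Aqp5 went the other way without reaching the fold cutoff, 191, 196 and 204 against 112, 116 and 114 CPM (log2 fold change −0.79, SE 0.093, adjusted p = 3.6e-06), as did the calcium sensor Stim1 (−0.73, adjusted p = 1.7e-04).

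Of 18 hormone receptors and growth axis genes, 0 were upregulated and 2 downregulated, beside 4.37% and 2.58% of all genes tested. The median was 0.15 (0.24 without replicate 2 of 3 weeks). Prlr, the prolactin receptor, had 23.8, 30.4 and 25.9 CPM at 3 weeks and 4.80, 4.20 and 3.78 CPM at 8 weeks (log2 fold change −2.65, SE 0.23, adjusted p = 6.9e-08). Igfbp3, which binds insulin-like growth factors in the circulation, fell from 25.5, 25.3 and 22.2 to 5.58, 4.48 and 6.66 CPM (log2 fold change −2.11, SE 0.21, adjusted p = 3.8e-07). The growth hormone receptor Ghr was higher by adjusted p alone (0.98).

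Of 30 genes of retinoid metabolism and detoxification, 5 were upregulated and 3 downregulated, and the median was 0.05 (−0.03 without replicate 1 of 8 weeks to 0.11 without replicate 3 of 8 weeks, with single libraries left out). Cyp2e1, a cytochrome P450 of small solvents, rose from 0.438, 1.21 and 0.190 to 11, 3.64 and 4.57 CPM (log2 fold change 3.45, SE 0.53, adjusted p = 7.1e-05), with replicate 1 highest at 8 weeks. Rbp4, Aldh1a2 (1.68), Lrat (1.62) and Crabp1 (1.49), genes of retinol transport, retinoic acid synthesis, retinyl ester storage and retinoic acid binding, rose from levels near or under 1 CPM. Cyp4b1 (−1.90), the flavin monooxygenase Fmo2 (−1.12) and the alcohol dehydrogenase Adh1 (−1.01) fell. The calls of Rbp4, Aldh1a2 and Adh1 rested on single libraries. Rbp4 fell short of a cutoff without replicate 1 (adjusted p = 0.097) or 3 of 3 weeks (0.099) or 1 of 8 weeks (0.13), and Aldh1a2 did without replicate 1 (adjusted p = 0.088) or 3 of 3 weeks (0.071) or 2 of 8 weeks (0.051). Adh1 fell short of a cutoff without replicate 2 of 3 weeks (−0.99) or 2 of 8 weeks (−0.94). With all 6 libraries kept, Adh1 was also under the fold cutoff by DESeq2 (−0.99) and with library totals (−0.98). It was so too with the other scalings and in fits of BALB/c libraries alone.

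Among immune cell markers, those of plasma cells, macrophages, dendritic cells and mast cells included DEGs. Of 8 plasma cell markers, 3 were upregulated (median 1.34), and their sum, dominated by Igj, was 2.35, 4.03 and 3.17 CPM at 3 weeks and 17, 14.4 and 65 CPM at 8 weeks. The median was 2.82 without replicate 1 of 3 weeks and 0.89 without replicate 3 of 3 weeks. Igj (Jchain), which joins IgA into dimers, had 7, 17 and 11 counts at 3 weeks and 175, 153 and 1065 at 8 weeks (log2 fold change 5.22, SE 0.65, adjusted p = 6.6e-06). Replicate 3 was several times above the other 8-week libraries, all of which were above all 3-week libraries. Pou2af1, a B lineage coactivator, had 1, 0 and 0 and 7, 3 and 20 counts (ratio 31.2, 95% interval 5.18 to 1271). Pou2af1 fell short of a cutoff without replicate 1 (adjusted p = 0.066), 2 (0.071) or 3 of 3 weeks (0.087) or 3 of 8 weeks (0.15). Of the genes that serve IgA transport, Pigr, the receptor that carries it across the epithelium, had 88.9, 81.6 and 83.7 CPM at 3 weeks and 491, 295 and 261 CPM at 8 weeks (log2 fold change 2.04, SE 0.22, adjusted p = 1.0e-06). Ccl28, a chemokine that draws IgA plasma cells to mucosal glands and was picked after its values were seen, rose from 103, 81.7 and 90.5 to 222, 282 and 231 CPM (log2 fold change 1.42, SE 0.17, adjusted p = 3.3e-06). T cell markers summed to 0.383, 0.484 and 0.380 and 1.18, 0.769 and 0.733 CPM, with Cd3e and Cd8b1 at 0 in all 6 libraries, and B cell markers to 0.164, 0.0807 and 0.0633 and 0.315, 0.280 and 0.564 CPM, with Pax5 at 0. No fold or test is given for these lists, because most of their genes lay at or under the floor of 3 counts.

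Of 12 macrophage markers, 5 were upregulated and 0 downregulated, with a median of 1.0, and 8 were higher by adjusted p alone. Their sum, led by Csf1r, was 56, 69.5 and 38 CPM at 3 weeks and 109, 90.8 and 130.2 CPM at 8 weeks, without overlap. Mrc1, the mannose receptor of resident macrophages, had 7.99, 9.04 and 5.82 CPM at 3 weeks and 18.3, 16.6 and 23.9 CPM at 8 weeks (log2 fold change 1.38, SE 0.16, adjusted p = 3.4e-06), and Cd163 had 4.16, 5.65 and 2.34 and 7.08, 6.71 and 14.6 CPM (log2 fold change 1.27, SE 0.28, adjusted p = 0.0019). The complement component genes C1qa (1.19) and C1qc (1.04) and the lysosomal marker Cd68 (1.04) were the other members called. Without single libraries the calls of Cd163, C1qa, C1qc and Cd68 were lost. Cd163 fell short of a cutoff without replicate 3 of 3 weeks (0.99) or 3 of 8 weeks (0.79), and C1qa did without replicate 3 of 3 weeks (0.97). C1qc fell short of a cutoff without replicate 3 of 3 weeks (0.83) or 3 of 8 weeks (0.91), and Cd68 did without replicate 3 of 3 weeks (adjusted p = 0.083) or 3 of 8 weeks (0.084). BC020535, an uncharacterised gene, had 1.15, 0.323 and 0.886 and 4.17, 6.29 and 5.42 CPM (log2 fold change 2.68). C7, a terminal complement component, had 0.876, 1.61 and 1.08 and 25.6, 24.3 and 24.7 CPM (log2 fold change 4.43, SE 0.25, adjusted p = 2.0e-10). Of 5 mast cell markers tested, the proteases Cpa3 (1.34), Mcpt4 (3.17) and Cma1 (1.28) were upregulated (list median 1.28). Kit was lower by adjusted p alone (−0.54), which it did not pass without any 1 of the 6 libraries (adjusted p = 0.069 to 0.14), and the summed list, led by Kit, overlapped between the ages. Of 8 dendritic cell markers, Cd209a (2.46) and Siglech (1.91) were upregulated, with a list median of 0.68. This median was 1.92 in the fit of only the 6 BALB/c libraries of 3 and 8 weeks. Of the neutrophil markers only Mpo was tested and did not pass, with 3, 3 and 3 counts and 12, 11 and 2 (count ratio 2.88, 95% interval 1.30 to 7.02).

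Of 15 MHC class I and II genes, 6 were upregulated, 0 downregulated and 9 neither, with a median of 1.26. B2m, the light chain of class I, had 45.4, 82.9 and 43.2 CPM at 3 weeks and 238, 250.1 and 233 CPM at 8 weeks (log2 fold change 2.07, SE 0.37, adjusted p = 3.4e-04), with replicate 2 the highest at both ages. The class II genes H2-Aa (5.20, 5.57 and 4.30 against 25, 19.2 and 25.2 CPM, log2 fold change 2.21, SE 0.32, adjusted p = 4.2e-05), H2-Eb1 (log2 fold change 2.11) and H2-Ab1 (1.68) rose with their invariant chain Cd74 (1.47) and the immunoproteasome subunit Psmb9 (1.86). Psmb9 fell short of a cutoff without replicate 2 (adjusted p = 0.073) or 3 of 3 weeks (0.074) or 1 (0.094) or 2 of 8 weeks (0.054). The class I heavy chains H2-K1 (0.66) and H2-D1 (0.50) did not pass. Of 16 interferon-induced genes, 2 were upregulated (Oas1a, 1.13, and Ifi27l2a, 1.18, whose ranges overlapped), and 0 downregulated, with a median of 0.06 (0.15 without replicate 1, 0.17 without replicate 2, −0.06 without replicate 3 of 3 weeks and 0.03 without replicate 3 of 8 weeks). Oas1a fell short of a cutoff without replicate 1 (adjusted p = 0.1), 2 (0.068) or 3 of 3 weeks (0.10) or 1 (0.069) or 3 of 8 weeks (0.23). Ifi27l2a fell short of a cutoff without replicate 1 (adjusted p = 0.13) or 3 of 3 weeks (0.13) or 1 of 8 weeks (0.11).

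Of 11 endothelial markers, Vwf was upregulated (1.02), and 6, among them Kdr (−0.74) and Cdh5 (−0.92), were lower by adjusted p alone, with a median of −0.74. Vwf fell short of a cutoff without replicate 3 of 3 weeks (0.95) or 3 of 8 weeks (0.99). The sum of these markers was 98.9, 101 and 84.3 and 68.5, 69.2 and 72.7 CPM. Of 4 pericyte markers 0 passed the cutoffs (median −0.34), and their sum was 22.4, 21.5 and 19.2 CPM at 3 weeks and 13.4, 15.5 and 14.6 CPM at 8 weeks, without overlap. Myoepithelial or smooth muscle markers were not called in 7 tested (median 0.09; 0.00 without replicate 1, 0.20 without replicate 2 of 3 weeks and 0.16 without replicate 1 of 8 weeks), while their sum was 101, 122 and 111 CPM at 3 weeks and 136, 149 and 143 CPM at 8 weeks, without overlap. Of 10 adipocyte markers Cidea, a lipid droplet protein, was upregulated (1.41; median 0.27). The adipocyte median was 0.00 without replicate 1, 1.55 without replicate 2, −0.23 without replicate 3 of 3 weeks, −0.23 without replicate 1, 0.47 without replicate 2 and 0.49 without replicate 3 of 8 weeks. The erythroid list had 2 tested genes, of which the beta-globin gene Beta-s fell (−1.19), with a list median of −0.85.

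Among 18 clock genes, 1 was upregulated and 2 downregulated, beside 4.37% and 2.58% of all genes tested. The median was −0.27 (−0.16 without replicate 3 of 8 weeks), and the hour at which glands were taken is not among the labels. Clock had 37.8, 38 and 36 CPM at 3 weeks and 90.9, 171 and 96.3 CPM at 8 weeks (log2 fold change 1.68, SE 0.18, adjusted p = 1.0e-06), with replicate 2 far above the others at 8 weeks. Its partner Arntl had 7.99, 6.78 and 6.65 and 6.92, 5.45 and 4.34 CPM and did not pass (adjusted p = 0.37). Nfil3, a repressor of clock output, fell from 23.5, 25.5 and 29.6 to 7.23, 6.36 and 11.8 CPM (log2 fold change −1.61, SE 0.29, adjusted p = 3.8e-04), and Hlf by −1.02 on the log2 scale. Hlf fell short of a cutoff without replicate 2 of 3 weeks (−0.90) or 1 of 8 weeks (−0.91). Of 15 immediate-early genes, a sign of handling as well as of signalling, Cyr61 was downregulated (−1.13) and the median was −0.18 (−0.28 without replicate 3 of 3 weeks). Cyr61 fell short of a cutoff without replicate 3 of 3 weeks (−0.99) or 2 of 8 weeks (−0.96).

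Housekeeping lists shifted by small amounts. None of 73 cytosolic ribosomal protein genes was a DEG. By adjusted p alone 42 were lower and 0 higher, beside 14.1% and 13.8% of all genes tested. The list median was −0.27. The 77 genes of the list found in the table held 0.809% ± 0.0325 of the counts at 3 weeks and 0.672% ± 0.0200 at 8 weeks. Rplp2 showed the largest difference of the genes tested (−0.92, SE 0.13). None of 73 respiratory chain genes was a DEG either, with 22 lower and 3 higher by adjusted p alone and a median of −0.09 (−0.14 without replicate 1 and −0.06 without replicate 2 of 8 weeks). Ndufc2 was the highest of them (0.96). In every scaling tried, the median log2 fold change of all genes stayed within 0.03 of 0.

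To see which of these changes were particular to BALB/c, the change from 3 to 8 weeks was tested against that in NOR LGs in the same fit, as an interaction. It differed for 297 genes (2.22%), with a more positive change in BALB/c for 124 (0.927%) and a more negative one for 173 (1.29%). The number of more negative genes varied with the libraries used, and was 84 without replicate 1 of NOR at 3 weeks, 90 without replicate 1 of NOR at 8 weeks, 109 and 104 without replicate 1 or 2 of BALB/c at 3 weeks, and 101 without replicate 2 of BALB/c at 8 weeks. That number was 71 without the pair of BALB/c libraries highest in parotid markers. It was 287 with only the 12 libraries of 3 and 8 weeks, and 275 by DESeq2. Gpr155, an orphan membrane protein, had the smallest p. It fell in BALB/c from 25.6, 28 and 25.4 to 7.47, 5.66 and 8.80 CPM, against 11.1 ± 1.67 (SD, n = 3) and 34.1 ± 5.19 CPM in NOR (interaction log2 value −3.43, SE 0.21, adjusted p = 1.7e-08). Dpyd, which degrades pyrimidines, rose in BALB/c from 24.4, 28.7 and 28.1 to 58, 58.6 and 66.2 CPM (log2 fold change 1.17, SE 0.11, adjusted p = 1.6e-07) while NOR had 8.35 ± 0.438 and 2.49 ± 0.756 CPM (interaction 2.94). Baiap2l1, an actin regulator of the cell cortex, had 65.8, 60.4 and 68.1 CPM at 3 weeks and 203, 201 and 187 CPM at 8 weeks in BALB/c (log2 fold change 1.6, SE 0.11, adjusted p = 2.5e-09), beside 59.3 ± 4.99 and 49.6 ± 1.98 CPM in NOR. For St6galnac2 the NOR means were 31.7 ± 6.48 and 39.5 ± 2.91 CPM, for Eml1 5.36 ± 0.474 and 5.63 ± 0.774 CPM, and for Sdc3 46.6 ± 6.07 and 73.1 ± 7.68 CPM. All 3 genes thus rose more in BALB/c.

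Gm12886 was level in BALB/c, 989, 733 and 945 against 1309, 1048 and 955 CPM with an adjusted p of 0.30, but had 1055 ± 131 and 109.7 ± 9.32 CPM in NOR (interaction 3.58, adjusted p = 8.7e-07). Gm6084 (Esp1) stood at 1.77 ± 0.184 and 1.80 ± 0.648 CPM in NOR (interaction 4.26, adjusted p = 0.0016), so that its rise was seen in BALB/c alone of the pair. Gm5886 reached only 1.07 ± 0.542 CPM in NOR at 8 weeks (adjusted p = 0.017 for the interaction), from a level too low at 3 weeks for a fold. Of its neighbours, 5530400C23Rik had 11 ± 1.58 and Gm5885 11.8 ± 1.77 CPM in NOR at 3 weeks, and both were lost there as well. Dnase1 fell less in NOR, from 9046 ± 1011 to 3768 ± 247 CPM (interaction −3.06, adjusted p = 1.0e-04). Slc27a2 rose in NOR too, from 272 ± 67.2 to 1732 ± 104 CPM, but by less (1.69, adjusted p = 8.2e-04). The interaction was not called for Obp1a (0.46), Spt1 (−0.14) or Mup4 (0.61).

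St3gal5 and Rell1 also stood among the 10 genes with the smallest interaction p. St3gal5, the synthase of ganglioside GM3, had 4.0, 6.29 and 4.68 CPM at 3 weeks and 10.9, 10.7 and 9.42 CPM at 8 weeks in BALB/c, beside 18.1 ± 0.934 and 6.27 ± 0.904 CPM in NOR. Its BALB/c change of 1.07 was below the fold cutoff without replicate 1 of the 3-week group (0.92). Rell1, a membrane protein related to the receptor RELT, had 65.5, 58.7 and 63.1 and 125, 133 and 118 CPM in BALB/c, beside 66.5 ± 2.70 and 42.9 ± 2.79 CPM in NOR. Its BALB/c log2 fold change of 1.0 lay at the cutoff, and was 0.96 without replicate 2 of the 3-week group and 0.96 without replicate 2 of the 8-week group. The 16 interferon-induced genes had a median log2 fold change of 2.55 in NOR and 0.06 in BALB/c, and the change was more positive in NOR by the interaction for 13 of them, against 1.29% of all genes tested.

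Levels reached at 8 weeks were set beside those of the 3 BALB/c libraries of 16 weeks, a comparison that shares the 8-week libraries. Mup4 had 73803 ± 4576 CPM at 8 weeks and 73071 ± 7388 CPM at 16 weeks (log2 fold change −0.01, adjusted p = 0.99), and Obp1a had 31583 ± 12475 and 34816 ± 8791 CPM (0.14, adjusted p = 0.86). Slc27a2 had 2875 ± 167 and 3470.3 ± 243 CPM (adjusted p = 0.47), and Gm5886 1649 ± 59.4 and 1417 ± 167 CPM (adjusted p = 0.72). For these 4 genes no further change was detected. Esp23 (Gm20581) was lower by adjusted p at 16 weeks, 26.2 ± 7.58 against 13.7 ± 0.737 CPM (−0.94, adjusted p = 0.025), as was 4930597G03Rik (13.7 ± 5.57 against 7.22 ± 1.47 CPM, −0.93, adjusted p = 0.027). Baiap2l1 was higher, 197 ± 8.57 against 282 ± 18.8 CPM (0.52, adjusted p = 0.014), and so was Hdc, which passed both cutoffs (1.08 ± 0.0867 against 2.60 ± 0.317 CPM, 1.26, adjusted p = 0.023).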

How the data were processed

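The deposited table holds raw counts per gene, which the authors made from stranded mRNA libraries (single reads of 50 bases) with HISAT2 on mm10 and featureCounts 1.6.2, without a strand option and without multi-mapping reads; lengths are summed exon bases of the deposited annotation. The 6 BALB/c libraries of 3 and 8 weeks were contrasted in an edgeR model of the 18 libraries that gave each group its mean (edgeR 4.0.16, limma 3.58.1, R 4.3.3). Genes were kept by filterByExpr (minimum count 10, minimum total 15), which left 13376 of 23337 genes, and 4978 had no count. TMM factors scaled the counts, and the biological coefficient of variation was 13.8%. DEGs passed 0.05 for the adjusted p (quasi-likelihood test, Benjamini-Hochberg) and 1 for the log2 fold change in either direction. The interaction with NOR and the change from 8 to 16 weeks came from the same fit. P-values take the 3 libraries of a group as replicates, although libraries of 8 weeks are pools. Depth was 13261982 to 20347504 counts per library. Where a group had no count, folds are bounds against a floor of 3 counts per library, and where it had 1 to 3 per library, count ratios with exact 95% intervals. Levels between genes were compared as CPM per kb where the text says per kb, and otherwise as CPM without correction for length.

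Genes were named by rules written before the count table was examined, over libraries and lists chosen with earlier results of these data known: DEGs with the 10 smallest p in each direction, the 10 largest fold changes with at least 10 CPM in the higher group, the 10 largest differences of mean CPM, the 10 smallest interaction p, called or abundant members of gene lists, and neighbouring DEGs. Results on some genes within these rules are not reported here. The gene lists were proliferation, imprinted growth genes, extracellular matrix, exocrine gland-secreted peptides, secretoglobins, lipocalins and odorant binding proteins, antimicrobial and protective tear proteins, secretory pathway and unfolded protein response, stimulus receptors and fluid secretion, hormone receptors and growth axis, developmental regulators, circadian clock, immediate-early genes, MHC class I and II, interferon-induced genes, cholesterol synthesis, fatty acid synthesis, retinoid metabolism and detoxification, respiratory chain and cytosolic ribosomal proteins, with markers of 20 tissues or cell types.

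Alternatives were DESeq2 1.42.0 as the test, edgeR scaled by the size factors of DESeq2, by library totals or by TMM computed after dropping the 20 top genes, all genes without a filter, only those with 1 CPM on average, models of fewer libraries, a replicate block, each library left out, no fold cutoff and glmTreat; 3 more were added after seeing the data. The procedure was also run on simulated data, from which no result is given here. Promoters came from RefSeq (GRCm38.p6), aligned with Biopython 1.88, and shared words of 50 bases from GENCODE transcripts. Python 3.11.15 and matplotlib 3.10.9 made tables and figures. Limits: age and pooling changed together, 3 libraries stood for each age, some libraries held salivary or muscle transcripts, and reads of near-identical genes could not be assigned.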

Additional observations from a re-analysis of the deposited data

Results flagged for a closer look

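For these named genes the change from 3 to 8 weeks differed between BALB/c and NOR LGs, by the interaction term of the edgeR fit with cutoffs of 0.05 for the adjusted p and 1 for the log2 value in either direction. Values are the log2 change in BALB/c minus that in NOR. The change was more positive in BALB/c for B4galnt3 (4.45), BC020535 (3.27), Baiap2l1 (1.86), C7 (1.49), Cidea (1.81), Clock (1.25), Cyp2e1 (4.24), Dpyd (2.94), Eml1 (1.84), Esp24 (1.44), Gm12886 (3.58) and Gm5886 (8.69). The same held for Gm6084 (4.26), Igfbp3 (1.61), Mki67 (1.94), Mup5 (3.96), Prol1 (4.98), Rbp4 (3.64), Rell1 (1.64), Scd1 (3.01), Scd2 (1.30), Sdc3 (2.06), Slc27a2 (1.69), Slc28a3 (1.32), St3gal5 (2.59) and St6galnac2 (2.06). It was more negative in BALB/c for 4930597G03Rik (−3.24), 5530400C23Rik (−7.49), 9530002B09Rik (−1.39), Cd74 (−1.55), Dnase1 (−3.06), Fdft1 (−1.98), Gpr155 (−3.43), H2-Ab1 (−1.65), Oas1a (−2.19), Slc16a12 (−3.63) and Snap91 (−2.23). For 5530400C23Rik, at the floor of counts at 8 weeks in both strains, the value restates its higher 3-week level in BALB/c and shows no differing change. 4930597G03Rik fell in NOR too, from 55 ± 5.46 to 14.7 ± 0.760 CPM (SD, n = 3). Its BALB/c means were 486 and 13.7 CPM, so that the strains differed mostly at 3 weeks. For Gm5886, Prol1 and Rbp4, which had at most 3 counts per library in some group, the fitted value depends on the prior count and marks direction only. NOR glands become diseased with age and BALB/c glands do not, so that the parts of strain and disease in these differences cannot be told apart. No outlier test was run, since groups had 3 libraries.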

How the results depend on the processing

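All alternatives set before the data were examined could be fitted. The number of DEGs stayed within 1.5 times the reported 929, 584 up and 345 down, except where the fold criterion itself was altered. By construction, glmTreat, which tests against the fold cutoff, gave fewer DEGs (313, 194 up and 119 down), and adjusted p without a fold cutoff gave more (3736, 1844 higher and 1892 lower). Leaving out each BALB/c library in turn gave 844 to 946 DEGs, 500 to 624 up and 322 to 347 down. DESeq2 gave 908 DEGs (586 up, 322 down), and scaling by library totals 865. Alternatives chosen after seeing the data gave 945 (parotid marker level as a covariate), 844 (without the BALB/c library of each age highest in parotid markers) and 926 (without Rn45s and Lars2).

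With the replicate number as a block within strain, as if libraries of the same number were paired, there were 893 DEGs (552 up, 341 down) and 240 interaction calls. Same-numbered libraries come from different animals, and the correlations of their deviations from the group means, across genes, were −0.141, 0.192 and 0.219, so no pairing was used.

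The interaction was less stable. Without a fold cutoff it was called for 503 genes (235 more positive and 268 more negative in BALB/c). More negative genes numbered 287 with only the 12 libraries of 3 and 8 weeks and 275 by DESeq2. Without the pair of BALB/c libraries highest in parotid markers, 168 genes were called, 71 of them more negative. With single libraries left out the totals ran from 183 to 298, more positive genes from 91 to 133 and more negative genes from 84 to 193. The total of 183 was without replicate 1 of NOR at 8 weeks (90 more negative), and more negative genes were 84 without replicate 1 of NOR at 3 weeks, 109 and 104 without replicates 1 and 2 of BALB/c at 3 weeks, and 101 without replicate 2 of BALB/c at 8 weeks. The cause was not tested.

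Of 135 named DEGs, 74 passed in every alternative run and 61 fell short in at least 1, 30 of these by glmTreat alone, and 0 reversed. Named DEGs that fell short numbered 14 without the pair highest in parotid markers (Axin2, Col4a1, Col4a2, Gm12888, Gm9041, Hdc, Hlf, Lox, Mup5, Oas1a, Pou2af1, Psmb9, Rell1 and Tk1), 8 with the covariate, 7 with library totals and 4 by DESeq2. With the covariate these were 9530002B09Rik, C1qc, Cd68, Hdc, Ifi27l2a, Meg3, Oas1a and Vwf. With library totals they were Adh1, Col4a2, Hlf, Ifi27l2a, Lox, Meg3 and Oas1a, and by DESeq2 Adh1, Fmod, Hdc and Meg3. Leaving out replicate 1 of 3 weeks gave log2 fold changes under the cutoff for Col4a2, Meg3, St3gal5 and adjusted p above 0.05 for Aldh1a2, Fmod, Ifi27l2a, Lox, Oas1a, Pou2af1, Rbp4. Leaving out replicate 2 of 3 weeks gave log2 fold changes under the cutoff for Adh1, Gm9041, Hlf, Rell1, Tk1 and adjusted p above 0.05 for Axin2, Oas1a, Pou2af1, Psmb9. Leaving out replicate 3 of 3 weeks gave log2 fold changes under the cutoff for C1qa, C1qc, Cd163, Cyr61, Vwf and adjusted p above 0.05 for Aldh1a2, Cd68, Fmod, Hdc, Ifi27l2a, Lox, Oas1a, Pou2af1, Psmb9, Ptgds, Rbp4. Leaving out replicate 1 of 8 weeks gave log2 fold changes under the cutoff for Col4a2, Hlf, Meg3, Mup5 and adjusted p above 0.05 for Fmod, Hdc, Ifi27l2a, Lox, Oas1a, Psmb9, Rbp4. Leaving out replicate 2 of 8 weeks gave log2 fold changes under the cutoff for 9530002B09Rik, Adh1, Cyr61, Rell1, Tk1 and adjusted p above 0.05 for Aldh1a2, Fmod, Hdc, Lox, Psmb9, Ptgds. Leaving out replicate 3 of 8 weeks gave log2 fold changes under the cutoff for C1qc, Cd163, Col4a2, Meg3, Vwf and adjusted p above 0.05 for Cd68, Oas1a, Peg3, Pou2af1, Slpi. The cause of these dependences was not tested. Besides those of the salivary, muscle and adipocyte markers, the list medians that changed sign with an alternative were exocrine gland-secreted peptides (−0.07 to 0.33), interferon-induced genes (−0.06 to 0.26), lacrimal markers (−0.06 to 0.08), proliferation (−0.19 to 0.29), retinoid metabolism (−0.04 to 0.11) and sebaceous or Harderian markers (−0.52 to 0.03). The median of the plasma cell markers was 2.82 without replicate 1 of 3 weeks.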

Other observations

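A few further DEGs of known function, chosen after their values were seen, are given as values. Psat1, of serine synthesis, had 39.5, 61.2 and 54.3 CPM at 3 weeks and 9.04, 8.53 and 15.2 CPM at 8 weeks (log2 fold change −2.22, SE 0.23, adjusted p = 7.6e-07), and Shmt2, of mitochondrial one-carbon metabolism, had a log2 fold change of −1.20. C4b, a complement component, rose from 3.07, 2.66 and 1.84 to 14.9, 8.67 and 18.5 CPM (log2 fold change 2.47, SE 0.34, adjusted p = 1.9e-05). Por, the electron donor of cytochromes P450, fell from 144, 121 and 145 to 43.4, 48.7 and 50.5 CPM (log2 fold change −1.52, SE 0.15, adjusted p = 3.5e-07).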
